A study of Homo sapiens with 12 samples.

Results

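Transcripts of 4 cadherin genes (CDH1, CDH2, CDH3 and CDH11) and 6 genes for transcription factors of the epithelial-mesenchymal transition (SNAI1, SNAI2, ZEB1, ZEB2, TWIST1 and TWIST2) were measured in ARPE-19, an established cell line derived from human retinal pigment epithelium (RPE). The 10 genes were found by their gene names among the 40591 named genes of the count table. They had been selected on their measured levels across these same libraries, CDH1 among them for its low level in GSTA4 and OSK, so their own values are given as a description and carry no p-value. The filter on low counts kept 6 of the 10 (CDH1, CDH2, CDH11, ZEB1, ZEB2 and TWIST1) among 15179 genes in all. CDH1 passed it through the GFP and WT libraries, where it was high. CDH3, SNAI1, SNAI2 and TWIST2 did not pass and have no fold change.

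Poly(A) RNA was sequenced from 4 groups of 3 libraries, and each stable line carried an open reading frame (ORF) that had been expressed for 4 days. The GFP line expressed green fluorescent protein as the ORF control. The GSTA4 line expressed glutathione S-transferase alpha 4, an enzyme that conjugates glutathione to aldehydes made by lipid peroxidation, and the OSK line expressed the reprogramming factors POU5F1 (OCT4), SOX2 and KLF4. WT libraries are from ARPE-19 with no ORF and no time named in the labels. In comparisons with WT, the line, its ORF and any difference in culture time therefore cannot be told apart. Whether a group's libraries represent 1 stable line or several is not stated, so an ORF and its line cannot be told apart, and p-values measure only the spread between these libraries, which may be technical. GSTA4 stood at 416 CPM (counts per unit of library size, with sizes adjusted by the trimmed mean of M values, TMM) in its own line and at 5.47 to 20.2 CPM elsewhere, and POU5F1, SOX2 and KLF4 stood at 779, 628 and 928 CPM in the OSK line and at no more than 1.57 CPM in the other groups.

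Cadherins are membrane proteins that join neighbouring cells in adherens junctions and are tied to actin by catenins. In an epithelial-mesenchymal transition, epithelial cells lower E-cadherin (CDH1) and often raise N-cadherin (CDH2) or cadherin-11 (CDH11), a change called the cadherin switch. The SNAI, ZEB and TWIST factors drive that change, and SNAI and ZEB proteins bind E-box sequences in the CDH1 promoter and repress it. RPE is an epithelium whose junctions are known for P-cadherin (CDH3) and N-cadherin, and in diseases with membranes on the retina its cells are known to turn mesenchymal. The reverse step, from mesenchymal to epithelial, is known as an early event when fibroblasts are reprogrammed with the OSK factors.

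Libraries held 12630675 to 17045454 reads. GFP replicate 1 stood apart since it had reads on 27349 named genes while the remaining 11 libraries had them on 19488 to 22073, and WT replicate 1 differed more from its own group than any other library did, with a chi-square per degree of freedom of 15.0 and 17.4 against the other WT libraries and of 2.54 between those. Of 15 RPE markers, 12 had a mean of at least 1 CPM, among them PMEL, TYRP1, OTX2 and MITF, while RPE65, DCT and TTR had 10 reads or fewer in every library. The summed level of the 15 markers was 2422 to 2661 CPM in WT and 2192 to 2526 in GFP libraries, against 1578 to 1650 in those of GSTA4 and 1402 to 1470 in those of OSK. The part of this difference in the results that follow was not tested. KRT8 was the largest part of the RPE sum in every group, at means of 1247, 843, 679 and 502 CPM in WT, GFP, GSTA4 and OSK. KRT18 was at 432, 314, 292 and 228 CPM. Other RPE markers did not all follow that order: PMEL and TYRP1 were highest in GFP (357 and 200 CPM), LRAT in GSTA4 (14.3 CPM) and RDH5 in OSK (13.5 CPM). Of 8 fibroblast markers, 3 (COL1A1, PDGFRB and FAP) reached 1 CPM, with LUM at 0 reads and COL1A2, DCN and THY1 at 17 reads or fewer. Their sum was 716 to 795 CPM over the WT and GFP libraries, 531 to 559 in GSTA4 and 341 to 399 in OSK. The sum of 6 neural markers was 355 to 370 CPM in OSK and 338 to 394 in WT, against 266 to 295 in GFP and GSTA4, with MAP2 and PAX6 making up most of it. The pluripotent cell markers NANOG, DPPA4, LIN28A, ZFP42 and TDGF1 had at most 7 reads in any library, and DNMT3B was at 1.19 to 2.61 CPM. Among 6 keratinocyte markers KRT10 alone, and among 8 endothelial and blood markers KDR and VWF, made up the levels, at sums of no more than 27.2 and 94.8 CPM. These are bulk samples, in which fewer cells of a type and less RNA per cell cannot be told apart.

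CDH1 encodes E-cadherin, the cadherin of most epithelia. Its RNA was at 16.4, 11.5 and 20.2 CPM in the GFP libraries and at 1.99, 2.72 and 5.07 CPM in WT. In the GSTA4 libraries it was at 0.0635, 0.375 and 0.206 CPM, which are 1, 5 and 3 reads. In the OSK libraries it was at 0.213, 0.380 and 0.985 CPM, which are 3, 6 and 14 reads. All 6 GSTA4 and OSK libraries lay below every WT library, and every WT library lay below every GFP library. The GSTA4 and OSK ranges overlapped each other, and both reached down to the floor of 3 reads, 0.177 to 0.228 CPM over the 12 libraries.

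Group means of CDH1 were 16.0 ± 4.36 CPM in GFP, 3.26 ± 1.61 in WT, 0.526 ± 0.406 in OSK and 0.215 ± 0.156 in GSTA4 (SD, n = 3). Against GFP the fitted log2 fold change was -6.22 (standard error, SE, 0.469) in GSTA4, a level 74.5-fold lower, and -4.92 (SE 0.402) in OSK, a level 30.2-fold lower. The exact size rested on single libraries with few reads. Without GSTA4 replicate 2, the GSTA4 library with 5 reads, the first value was -6.83, and without OSK replicate 3, the one with 14 reads, the second was -5.69. The GFP line was itself 4.87-fold higher than WT, a log2 difference of 2.28 (SE 0.304), with values from 2.01 to 2.77 when any 1 library was left out. Set against WT in place of GFP, the folds were 15.3 lower for GSTA4 (log2 -3.94, SE 0.552) and 6.21 lower for OSK (log2 -2.63, SE 0.459). Between OSK and GSTA4 the log2 difference of 1.30 had an SE of 0.78, and it ran from 0.53 without OSK replicate 3, and 0.84 without GSTA4 replicate 1, to 1.92 without GSTA4 replicate 2. CDH1 lies on chromosome 16 (chr16:68737225-68835548, plus strand, GRCh38 with the GENCODE 29 annotation), 14608 bases beyond the end of CDH3.

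CDH2 encodes N-cadherin, the classical cadherin of neurons and mesenchymal cells and also of RPE. It was at 287, 328 and 317 CPM in WT, 266, 254 and 262 CPM in GFP and 272, 256 and 257 CPM in GSTA4. The OSK libraries were at 139, 128 and 140 CPM. Every OSK library was therefore at about the same level and below all 9 others, while the GFP and GSTA4 ranges overlapped. The means were 311 ± 21.5, 261 ± 6.34, 261 ± 9.21 and 136 ± 6.98 CPM for WT, GFP, GSTA4 and OSK (SD, n = 3). The log2 fold change was -0.94 (SE 0.0628) in OSK against GFP and 0.01 (SE 0.0615) in GSTA4 against GFP. In neither line with low CDH1 was CDH2 higher than in GFP, and in OSK it was lower. The gene lies on the minus strand at chr18:27950966-28177446 (GRCh38).

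CDH11 encodes cadherin-11, a cadherin of mesenchymal cells and osteoblasts. Levels were 211, 183 and 192 CPM in WT, 142, 138 and 146 CPM in GFP and 196, 197 and 206 CPM in GSTA4. OSK had 351, 320 and 404 CPM. The order of means was OSK (358 ± 42.4), GSTA4 (199.8 ± 5.29), WT (195 ± 14.2) and GFP (142 ± 4.05; SD, n = 3), in which the neighbours GSTA4 and WT overlapped. The log2 fold change was 1.33 (SE 0.0746) in OSK against GFP, 0.49 (SE 0.0744) in GSTA4 against GFP and -0.46 (SE 0.0744) in GFP against WT. Against WT, the GSTA4 line differed by only 0.03 (SE 0.0736), so its higher level held against GFP and not against WT, while OSK remained higher at 0.87 (SE 0.0733). CDH11 lies at chr16:64943753-65126112 on the minus strand (GRCh38).

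CDH3 encodes P-cadherin, the cadherin that human RPE is best known for. It had 5, 2 and 4 reads in WT, 15, 7 and 1 in GFP, 2, 1 and 1 in GSTA4 and 0, 1 and 1 in OSK. All 4 groups were at the edge of detection at this depth, and every GSTA4 and OSK library was under the floor of 3 reads. The 15 reads came from GFP replicate 1, the library with reads on the most genes.

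**Figure D1:**
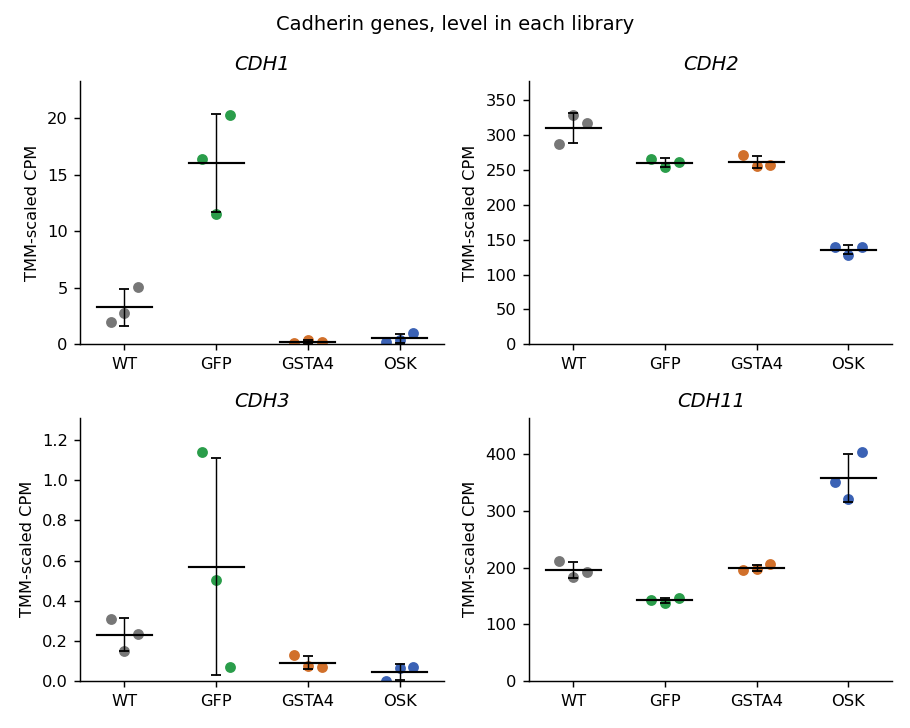
Level of CDH1, CDH2, CDH3 and CDH11 in each library as TMM-scaled CPM, on a separate axis from 0 for each gene. Points are the 3 libraries of a group, horizontal lines are means and bars are the SD, cut off at 0; CDH1 sits at 16.0 CPM in GFP and below 1 CPM in GSTA4 and OSK, CDH2 is lowest in OSK and CDH11 is highest there.

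Ratios within a library do not depend on how libraries are scaled. There were 61.4 ± 15.9 CDH1 reads per 1000 CDH2 reads in GFP and 10.4 ± 4.89 in WT, against 0.835 ± 0.618 in GSTA4 and 3.84 ± 2.85 in OSK (SD, n = 3). N-cadherin reads therefore outnumbered E-cadherin reads in every library, also where CDH1 was highest. The ratio of CDH11 to CDH2 reads was 0.545 ± 0.01101 in GFP, 0.633 ± 0.0920 in WT and 0.765 ± 0.0406 in GSTA4, and it was 2.64 ± 0.214 in OSK. Levels between genes were compared per kilobase of exon, with the summed exons of GENCODE 29, which may not be the release the authors counted with. On that scale CDH2 was the most abundant of the 4 cadherins in WT, GFP and GSTA4, at 62.8, 52.6 and 52.8 CPM per kilobase, with CDH11 next at 14.6, 10.6 and 14.9. In OSK they were level, at 27.4 ± 1.41 for CDH2 and 26.8 ± 3.17 for CDH11, and their libraries overlapped. CDH1 reached 2.60 ± 0.706 CPM per kilobase in GFP and 0.0852 ± 0.0657 in OSK.

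**Figure D2:**
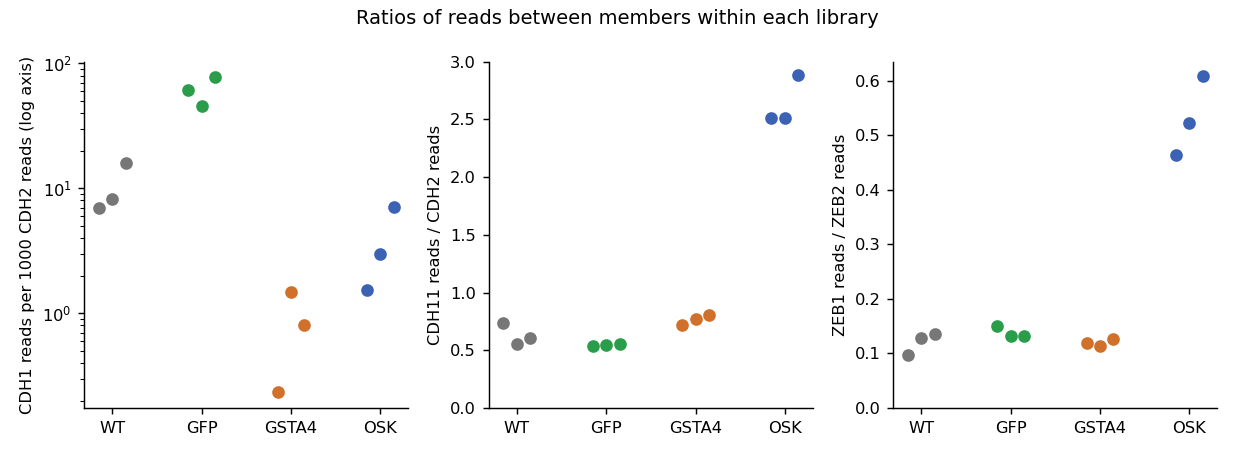
Ratio of reads between 2 of the described genes within each library, one point per library: CDH1 per 1000 CDH2 reads (log axis), CDH11 to CDH2, and ZEB1 to ZEB2. The OSK libraries stand above all others in the CDH11 and ZEB1 ratios, at means of 2.64 and 0.532, and the GFP libraries are highest in the CDH1 ratio, at a mean of 61.4.

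ZEB1 encodes a zinc finger factor that binds E-boxes and represses CDH1 and other epithelial genes. Its promoter is shown because ZEB1 had the highest fold of the factors in OSK relative to GFP, and because the window holds both an E-box and the core that KLF factors bind. RefSeq (GRCh38.p14) gives 7 start windows for ZEB1, and the 250 bases before the first start, chr10:31318167-31318416 on the plus strand, read 5′ to 3′ as follows, with the E-box CAGGTG and the KLF core CACCC (here read on the other strand as GGGTG) in capitals.
ZEB1 promoter: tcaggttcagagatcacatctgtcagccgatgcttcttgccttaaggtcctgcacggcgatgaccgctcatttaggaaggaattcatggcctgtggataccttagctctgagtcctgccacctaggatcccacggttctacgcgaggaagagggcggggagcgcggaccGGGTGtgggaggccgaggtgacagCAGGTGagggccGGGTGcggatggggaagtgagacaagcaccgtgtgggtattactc
The E-box begins 57 bases before the start and the KLF cores 81 and 45 bases before it. Both strands were searched over the 250 bases before each start, and among the table's 35116 such windows, 17.5% held CAGGTG, 54.7% held CACCC and 61.8% held any E-box CANNTG, a pattern that includes CAGGTG. The octamer ATGCAAAT of POU factors was in 1.63% of windows and the SOX core CATTGT in 9.29%, and neither was in this one. A match is a string of letters and not a measured binding site. The KLF core was in all 7 ZEB1 windows. It was also in each of the 2 windows of CDH2, a gene lower in OSK than in GFP, but not in those of ZEB2 and TWIST2. Because gene and window were chosen by the fold and the motifs, a link between motif and level was not tested. The RefSeq table matched 4 of the 10 genes (ZEB1, CDH2, ZEB2 and TWIST2).

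ZEB1 RNA was at 14.2, 15.8 and 17.3 CPM in WT, 17.03, 13.6 and 14.5 CPM in GFP and 18.9, 18.7 and 21.6 CPM in GSTA4. The OSK libraries were at 38.7, 40.9 and 47.6 CPM, above all 9 others. All 3 GSTA4 libraries were above all GFP and WT libraries, which overlapped each other. The means were 15.8 ± 1.58, 15.1 ± 1.77, 19.7 ± 1.62 and 42.4 ± 4.61 CPM for WT, GFP, GSTA4 and OSK in turn (SD, n = 3). The log2 fold change against GFP was 1.49 (SE 0.111) in OSK, a level 2.82-fold higher, and 0.39 (SE 0.116) in GSTA4, 1.31-fold higher. OSK was above GSTA4 by 1.10 (SE 0.108). The gene (chr10:31318495-31529814, plus strand, GRCh38) overlaps the antisense gene ZEB1-AS1, and since no strand setting is given, reads of the pair may not be separable. ZEB1-AS1 held 12 to 32 reads in the WT, GFP and GSTA4 libraries and 29, 46 and 38 in OSK, against 190 to 676 reads for ZEB1.

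ZEB2 encodes the close relative of ZEB1 that binds the same E-boxes. Its levels were 113, 103 and 110 CPM in GFP and 147, 123 and 128 CPM in WT. The GSTA4 libraries had 159, 164 and 172 CPM and the OSK libraries 83.5, 78.2 and 78.0 CPM. No 2 groups overlapped, and the order was GSTA4 (165 ± 6.16), WT (133 ± 12.6), GFP (109 ± 4.83) and OSK (79.9 ± 3.10; SD, n = 3). ZEB2 differed from GFP in opposite directions in the lines with low CDH1. It was higher in GSTA4 than in GFP by 0.60 (SE 0.0673) on the log2 scale and lower in OSK than in GFP by a log2 difference of -0.44 (SE 0.0689). The 2 values share the GFP libraries; the direct difference of OSK from GSTA4 was -1.05 (SE 0.0683). The ratio of ZEB1 to ZEB2 reads was 0.120 ± 0.0207 in WT, 0.138 ± 0.01097 in GFP and 0.120 ± 0.00595 in GSTA4, and 0.532 ± 0.0733 in OSK. Reads of ZEB2-AS1, which overlaps ZEB2 (chr2:144364364-144524583, minus strand, GRCh38), were between 0 and 5 per library.

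TWIST1 encodes a basic helix-loop-helix factor of mesoderm and neural crest. It was at 14.4, 14.3 and 16.4 CPM in GFP and 15.2, 17.8 and 17.2 CPM in WT. The GSTA4 libraries had 26.9, 19.2 and 23.8 CPM and the OSK libraries 15.0, 18.6 and 18.6 CPM. The GSTA4 libraries were above all 9 others, and the remaining groups overlapped. The means were 16.7 ± 1.32, 15.1 ± 1.18, 23.3 ± 3.86 and 17.4 ± 2.05 CPM (SD, n = 3), and the log2 fold change against GFP was 0.63 (SE 0.126) in GSTA4 and 0.21 (SE 0.129) in OSK. The gene lies at chr7:19020991-19117672 on the minus strand (GRCh38).

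The factors best known as fast repressors of CDH1 were at or near the limit of detection. SNAI1, which encodes Snail, had at most 1 read in each of 11 libraries and 5 reads in OSK replicate 1. SNAI2, which encodes Slug, had 0 reads in all 12 libraries, which allows a level of up to 0.177 to 0.228 CPM, counting error only. Whether that row of the table is intact was not tested, and the limit applies only if it is. TWIST2, the relative of TWIST1, had 0 to 3 reads. At this depth no difference between groups was detectable for these 3 genes, with the libraries of every pair of groups overlapping or all at 0. Per kilobase, the levels of factors that were detected were highest for TWIST1 in WT, GFP, GSTA4 and OSK (8.23, 7.42, 11.5 and 8.55 CPM per kilobase), with ZEB2 at 5.29, 4.34, 6.59 and 3.19 and ZEB1 at 1.82, 1.74, 2.28 and 4.90. The summed exons of ZEB2 in GENCODE 29 come to 25058 bases, so its value per kilobase depends on the annotation more than the others.

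**Figure D3:**
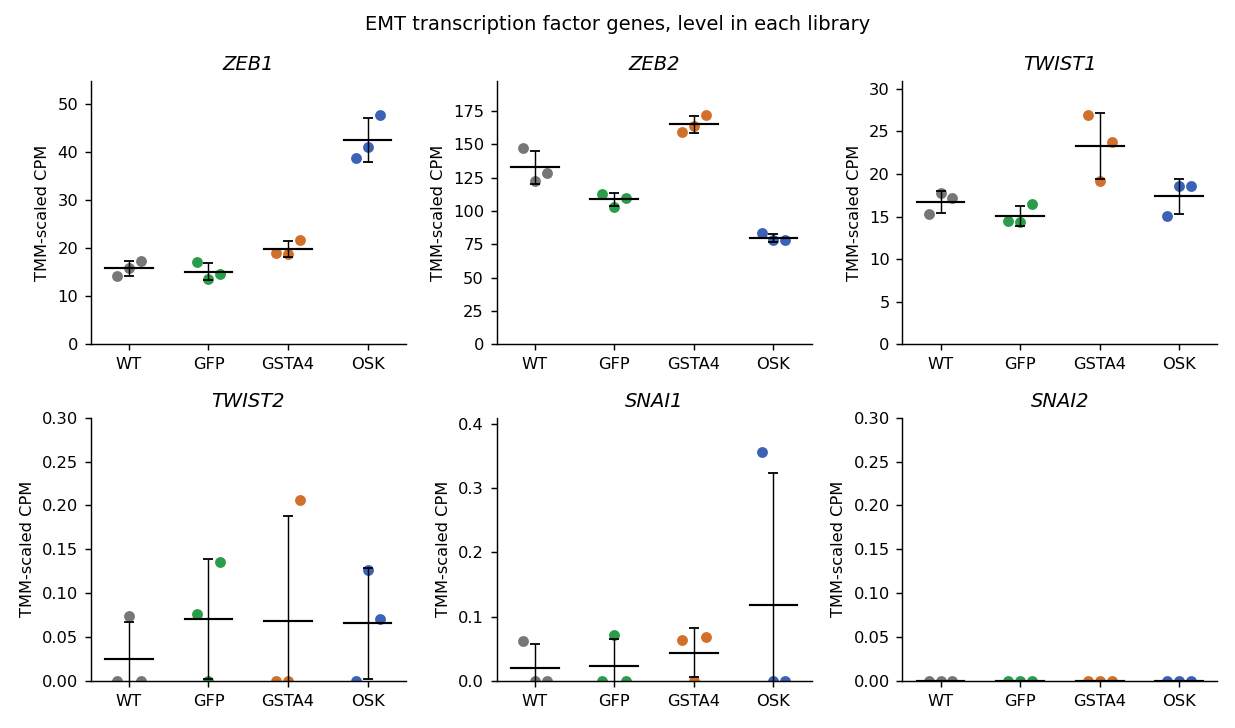
Level of ZEB1, ZEB2, TWIST1, TWIST2, SNAI1 and SNAI2 in each library as TMM-scaled CPM, on a separate axis from 0 for each gene. Points are libraries, lines are means and bars are the SD, cut off at 0; ZEB1 is highest in OSK (mean 42.4 CPM), ZEB2 and TWIST1 are highest in GSTA4 (165 and 23.3 CPM), and the other 3 genes stay below 0.4 CPM.

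In GSTA4 against GFP, the libraries did not overlap for 5 of the 10 genes, 4 of them higher (CDH11, ZEB1, ZEB2 and TWIST1) and 1 lower (CDH1). The same held for 42.3% of all tested genes, 22.4% higher and 19.9% lower. In OSK against GFP it was again 5, with 2 higher (CDH11 and ZEB1) and 3 lower (CDH1, CDH2 and ZEB2), beside 54.7% of all tested genes, 27.5% higher and 27.2% lower. In GFP against WT it was 4, with CDH1 higher and CDH2, CDH11 and ZEB2 lower, beside 34.6% of all genes, 16.9% higher and 17.7% lower. In OSK against GSTA4 it was 5, with CDH11 and ZEB1 higher and CDH2, ZEB2 and TWIST1 lower, beside 58.0% of all genes, 28.8% higher and 29.2% lower. The shares of all genes are over those that passed the filter, as did 6 of the 10. Only genes among these 6 were counted in the comparisons above, so counts and shares have unlike bases. Because the genes were selected on these values, nothing is read from the counts. The GSTA4 and OSK comparisons share their GFP libraries. With WT as the control the count was 6 for each line, beside 49.0% of all tested genes in GSTA4 and 53.5% in OSK. CDH3, which did not pass the filter, was counted in both at levels under the floor. In GSTA4 it was counted only through library size, since GSTA4 replicate 1 and WT replicate 2 each had 2 reads of it. Against WT, CDH2 was lower in GSTA4 (log2 -0.25, SE 0.0613) and CDH11 no longer stood apart there.

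**Figure D4:**
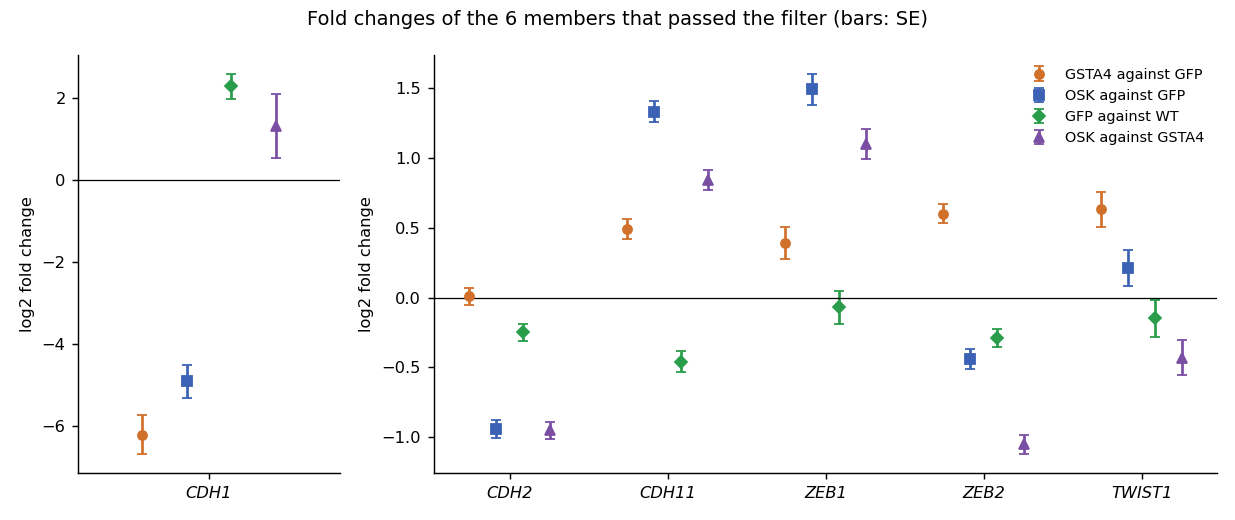
Fitted log2 fold changes of the 6 genes that passed the filter in 4 comparisons, with bars for the SE, CDH1 on its own axis. CDH1 lies at -6.22 and -4.92 in GSTA4 and OSK against GFP and at 2.28 in GFP against WT, while every other value lies between -1.05 and 1.49.

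For each of the genes whose group means spanned at least 1 on the log2 scale, the most similar profiles were sought among 13695 tested genes with a mean of at least 1 CPM. Likeness was measured as the root mean square (RMS) difference of centred log2 CPM over the 12 libraries. CDH1 spanned 5.59, and its nearest gene was RAB17, a small GTPase of epithelial membrane traffic, at an RMS difference of 0.99 against a median of 2.28 over all genes. RAB17 averaged 34.1 CPM in WT and 42.8 in GFP, against 1.83 in GSTA4 and 5.04 in OSK. PODXL, which encodes the surface sialomucin podocalyxin, followed at 1.09, with 174, 471, 35.6 and 99.0 CPM, and the pseudogene ZDHHC8P1 at 1.10, with 6.68, 14.6, 1.28 and 3.27 CPM. The other genes had much closer companions, in part because their span was smaller. MOSPD1 lay at 0.08 from CDH2 (median 0.52), FBXO8 at 0.12 from CDH11 (median 0.55), SERINC5 at 0.10 from ZEB1 (median 0.66) and PKD2, which encodes the channel polycystin-2, at 0.08 from ZEB2 (median 0.46). SERINC5 went from 22.9 CPM in GFP to 59.7 CPM in OSK, and PKD2 from 183 CPM in GFP to 246 in GSTA4 and 123 in OSK.

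Around these genes, 9 lists of other cadherin and epithelial-mesenchymal genes were tested with edgeR's quasi-likelihood test, with Benjamini-Hochberg adjustment over all 15179 genes and a threshold of 0.05. All adjusted p-values below are from that test. The lists were chosen with earlier results of these data known, so their shares are given as a description. Of 164 listed genes 118 were tested. In GSTA4 against GFP, 65 passed (55.1%), 20 higher and 45 lower, beside 29.2% of all genes, 14.7% higher and 14.6% lower. In OSK against GFP, 86 passed (72.9%), 28 higher and 58 lower, beside 45.9% of all genes, 23.1% higher and 22.8% lower. In OSK against GSTA4, 82 passed (69.5%), 43 higher and 39 lower, beside 47.8%, 24.1% higher and 23.8% lower. In GFP against WT, 41 passed (34.7%), 17 higher and 24 lower, beside 22.2%, 11.0% higher and 11.2% lower, and this count was 25 without GFP replicate 2, 27 without GFP replicate 3 and 26 when only those 6 libraries were fitted. The median log2 fold change of the 118 was -0.20, -0.24, 0.02 and -0.04 in these comparisons, beside 0.01, -0.02, -0.01 and 0.01 for all genes.

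**Figure D5:**
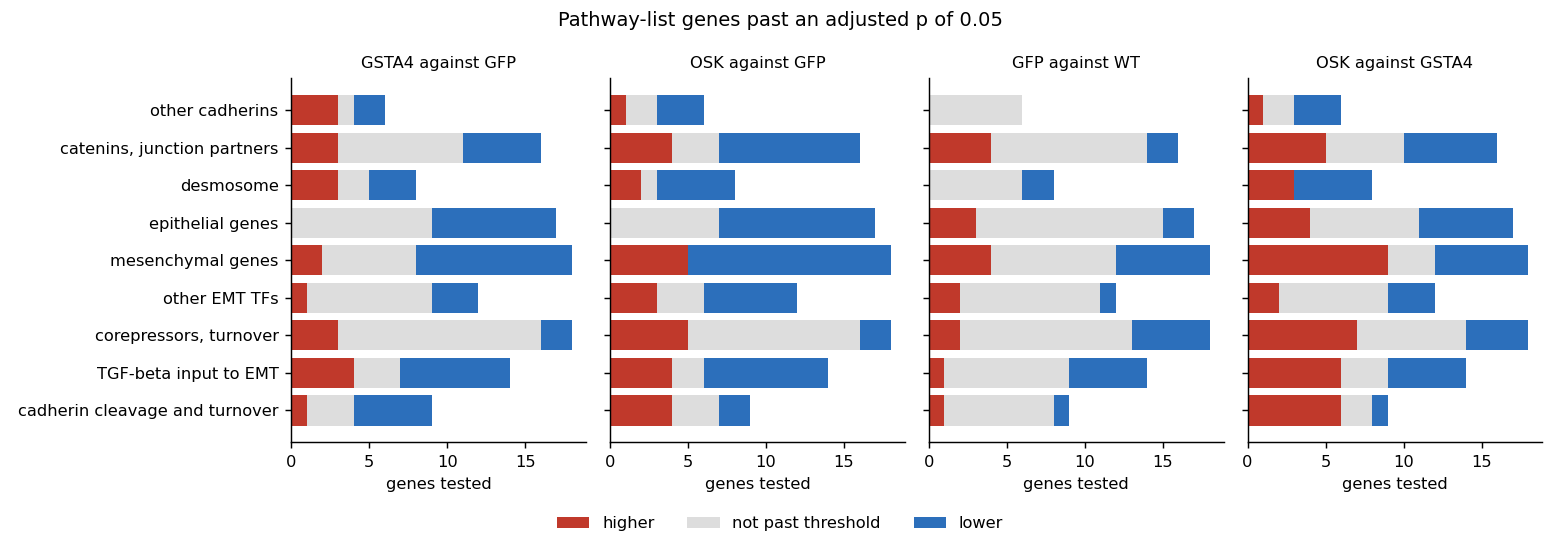
Number of tested genes per pathway list that were higher (red), lower (blue) or not past an adjusted p of 0.05 (grey) in each comparison. Among the 17 tested genes of the epithelial list 0 were higher in GSTA4 or OSK against GFP, where 8 and 10 were lower.

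Among the other cadherins, 6 of 18 genes were tested, and the rest had at most 21 reads in any library. CDH10, a neuronal cadherin, rose in both lines, from 3.30 ± 0.504 CPM in GFP to 11.7 ± 2.02 in GSTA4 (log2 1.81, SE 0.194, adjusted p = 3.99e-07) and 13.1 ± 2.07 in OSK (log2 1.98, SE 0.193, adjusted p = 3.85e-08; SD, n = 3). CDH17, the cadherin of gut epithelium, fell in both, from 37.6 ± 5.95 CPM to 13.7 ± 1.87 and 15.5 ± 1.93 (adjusted p = 6.18e-08 and 1.21e-07). CDH13, a cadherin anchored by a lipid, fell in GSTA4 from 5.52 ± 0.106 to 1.17 ± 0.357 CPM (adjusted p = 1.62e-06) and was at 6.41 ± 1.33 CPM in OSK. CDH4 (R-cadherin, of the retina) rose in GSTA4 from 36.0 ± 4.30 to 76.5 ± 7.56 CPM (adjusted p = 3.74e-05). CDH24 fell in OSK from 40.9 ± 2.47 to 19.6 ± 1.11 CPM (adjusted p = 9.72e-10). In GFP against WT 0 genes of the list passed in edgeR's test or in DESeq2, with adjusted p-values between 0.136 and 0.972 in edgeR, where 2 were higher and 1 lower at an unadjusted p under 0.05. The list's medians were 0.61 in GSTA4 and -0.73 in OSK against GFP.

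The catenins link cadherins to actin. Of 16 tested catenin and junction partner genes, 3 rose and 5 fell in GSTA4 against GFP (median -0.09), 4 rose and 9 fell in OSK against GFP (median -0.22), and 4 rose and 2 fell in GFP against WT (median 0.10). CTNNA1 (alpha-catenin, which binds actin) was at 446 ± 21.3 CPM in GFP, 519 ± 17.3 in GSTA4 and 591 ± 10.5 in OSK, higher in both (adjusted p = 0.00527 and 4.83e-06). CTNNB1 (beta-catenin, which binds the cadherin tail and also acts in Wnt signalling) was higher in GSTA4, at 527 ± 19.6 against 405 ± 9.64 CPM (log2 0.38, SE 0.0548, adjusted p = 2.24e-05). In OSK it was lower, at 359 ± 10.5 CPM (log2 -0.18, SE 0.0549, adjusted p = 0.0124), a call that was lost with no filter and without GFP replicate 2 or OSK replicate 3, with adjusted p-values from 7.51e-05 to 0.0767 over the alternatives. JUP (plakoglobin, shared by adherens junctions and desmosomes) was at 131 ± 6.44 CPM in the GFP line, 78.3 ± 9.48 in OSK, 114 ± 4.85 in GSTA4 and 183 ± 4.10 in WT, lower in OSK than in GFP (log2 -0.75, SE 0.0736, adjusted p = 4.66e-08). Its difference in GSTA4 (adjusted p = 0.0408) was lost with no filter and without GFP replicate 2 or 3 or any 1 GSTA4 library. CTNND1 (p120-catenin, which keeps cadherins at the membrane) was at 26.8 ± 4.03 CPM in GFP, 21.1 ± 2.46 in GSTA4 and 19.2 ± 1.43 in OSK (adjusted p = 0.0279 and 0.0017), and the first of these was lost with WT as the control and without GFP replicate 1 or 2 or GSTA4 replicate 1 or 2. Over the alternatives, the adjusted p-values of the GSTA4 difference ran from 2.33e-07 to 0.162 for JUP and from 0.00689 to 0.333 for CTNND1.

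Several partner genes had larger folds than these 4. CTNND2, the neural relative of p120-catenin, fell from 36.6 ± 1.28 CPM in GFP to 14.2 ± 0.439 in GSTA4 (log2 -1.37, adjusted p = 3.05e-10) and 22.0 ± 1.82 in OSK (adjusted p = 6.23e-07). NECTIN1, an adhesion molecule that nucleates adherens junctions, fell in GSTA4 from 31.0 ± 3.51 to 18.1 ± 0.620 CPM (adjusted p = 3.01e-06) and rose in OSK to 68.2 ± 3.28 CPM (adjusted p = 1.47e-09). ARVCF, a further p120 relative, fell in OSK from 109 ± 9.86 to 40.8 ± 4.15 CPM (log2 -1.42, adjusted p = 2.17e-10). AJUBA, a LIM protein of adherens junctions that also serves SNAI factors as corepressor, fell in OSK from 334 ± 12.1 to 169 ± 6.54 CPM (adjusted p = 1.27e-10). It was also lower in GFP than in WT, at 459 ± 39.2 CPM (adjusted p = 4.12e-05).

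Desmosomes are the other cadherin junctions of epithelia. Of 8 tested desmosome genes, 3 rose and 3 fell in GSTA4 (median -0.04), and 2 rose and 5 fell in OSK (median -0.33), each against GFP. DSP (desmoplakin, which ties desmosomes to keratin) fell in GSTA4 from 249 ± 24.6 to 192 ± 6.39 CPM (adjusted p = 0.00315) and rose in OSK to 439 ± 26.4 CPM (log2 0.82, SE 0.0886, adjusted p = 1.86e-07). DSC2 (desmocollin-2, a desmosomal cadherin) fell in both, from 41.4 ± 6.05 to 29.3 ± 0.366 CPM in GSTA4 (adjusted p = 0.00071) and 19.9 ± 1.83 in OSK (adjusted p = 4.25e-08). PKP2 (plakophilin-2, which anchors desmoplakin) and DSC3 fell in OSK, by 0.69 and 0.43 on the log2 scale (adjusted p = 1.19e-07 and 0.000139). DSC3 and PKP4 rose in GSTA4 by log2 differences of 0.38 and 0.39 (adjusted p = 0.000706 and 3.52e-05). DSG1, DSG3, DSG4 and PKP1, which mark stratified epithelia, had at most 11 reads in any library, and so did PKP3.

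The epithelial list held 29 genes that factors of the ZEB and SNAI families are known to repress or that fall in the transition, and 17 were tested. In GSTA4 against GFP, 8 fell and 0 rose (median -0.39), and in OSK against GFP 10 fell and 0 rose (median -0.63), at an adjusted p of 0.05 in edgeR's test. At an unadjusted p under 0.05 in edgeR, and in DESeq2, the number that rose was also 0 in both comparisons. The list was not counted against WT, and with WT as the control AP1M2 passed the threshold as higher in GSTA4 (log2 0.55). CRB3, a polarity protein of the apical membrane, fell from 5.20 ± 0.872 CPM in GFP to 1.51 ± 0.317 in GSTA4 (log2 -1.79, SE 0.274, adjusted p = 4.12e-05) and to 2.19 CPM in OSK (adjusted p = 0.000513). MAL2, a protein of apical transport, fell in GSTA4 from 188 ± 6.62 to 104 ± 0.828 CPM (adjusted p = 2.88e-06) and to 144 ± 4.25 CPM in OSK (adjusted p = 0.00405). AP1M2, the epithelial subunit of an adaptor complex for sorting, fell in OSK from 14.6 ± 0.512 to 3.26 ± 0.250 CPM (log2 -2.16, SE 0.150, adjusted p = 2.5e-10), and was at 12.8 ± 1.29 CPM in GSTA4. PATJ, a tight junction scaffold, fell in OSK from 49.8 ± 1.65 to 28.1 ± 1.32 CPM (adjusted p = 1.1e-08). OCLN (occludin, of tight junctions) fell by 0.45 and 1.09 on the log2 scale in GSTA4 and OSK (adjusted p = 0.0276 and 8.88e-06). The GSTA4 call of OCLN was lost with WT as the control and without GFP replicate 1 or any 1 GSTA4 library (adjusted p from 0.00182 to 0.13). The 12 untested genes include EPCAM, ESRP1, GRHL2, OVOL1 and OVOL2, classic markers or guardians of the epithelial state, each with at most 9 reads in any library, and MIR200CHG, the host gene of microRNAs that target ZEB1 and ZEB2, with 0 reads. Of the same 12, CLDN7 (claudin-7, of tight junctions) and EHF (an epithelial ETS factor) had their highest means in OSK, 0.754 ± 0.449 and 1.17 ± 0.660 CPM, with at most 18 and 24 reads in a library. In GFP these were at 0.0226 and 0.222 CPM, and the differences were not tested. In GFP against WT, AP1M2 and PATJ were higher (log2 0.75 and 0.40, adjusted p = 0.000448 and 0.000504), as CDH1 was, and LLGL2 and MAL2 were lower, both calls that leaving out 1 library removed: WT replicate 2 or GFP replicate 2 for LLGL2, and WT replicate 1 or GFP replicate 2 or 3 for MAL2.

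Of 26 genes of mesenchymal cells 18 were tested. In GSTA4 against GFP, 2 rose and 10 fell (median -0.63), and in OSK against GFP, 5 rose and 13 fell (median -0.90), so most tested genes of this list were also lower in the lines with low CDH1. COL1A1 (type I collagen) fell from 82.6 ± 2.13 CPM in GFP to 4.53 ± 1.87 in GSTA4 (log2 -4.19, SE 0.204, adjusted p = 2.97e-12) and 20.9 CPM in OSK (adjusted p = 3.87e-09). MMP2 (gelatinase A) fell from 61.6 ± 3.16 to 5.15 ± 1.46 CPM in GSTA4 (log2 -3.56, adjusted p = 3.5e-12) and 33.0 CPM in OSK (adjusted p = 2.26e-05). TAGLN (a smooth muscle actin-binding protein) fell by 3.56 and 2.18 on the log2 scale in GSTA4 and OSK (adjusted p = 5.17e-09 and 5.01e-07). VIM (vimentin, the mesenchymal intermediate filament) rose in GSTA4 from 549 ± 24.3 to 728 ± 64.2 CPM (adjusted p = 0.00596) and fell in OSK to 434 CPM (adjusted p = 0.0125). The OSK call of VIM was lost without GFP replicate 2 or OSK replicate 1, and with WT as the control (log2 -0.03, adjusted p = 0.862). In OSK the genes that rose included ITGA5, a receptor for fibronectin, from 39.4 ± 4.80 to 256 ± 13.4 CPM (adjusted p = 6.39e-15), and CD44, the hyaluronan receptor, from 115 ± 8.61 to 377 ± 29.02 CPM (adjusted p = 8.56e-14). LOX, which cross-links collagen, was at 124 CPM in GFP, 31.9 ± 2.76 in GSTA4 and 414 ± 71.1 in OSK (adjusted p = 8.94e-10 and 4.98e-10 against GFP). FSCN1 (fascin, which bundles actin) fell in OSK from 327 ± 34.8 to 110.5 ± 8.96 CPM (adjusted p = 1.29e-12), and FN1 (fibronectin) by 0.60 on the log2 scale (adjusted p = 0.000579).

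Of 12 tested further transcription factors of the transition, 1 rose and 3 fell in GSTA4 (median -0.15) and 3 rose and 6 fell in OSK (median -0.17), each against GFP. HMGA2 was the 1 that rose in GSTA4, from 2.89 ± 0.881 CPM in GFP to 5.30 ± 0.312 (log2 0.88, SE 0.304, adjusted p = 0.0345). That call was lost without GFP replicate 1 or 3 or any 1 GSTA4 library (adjusted p from 0.00164 to 0.154). HMGA2 was also higher in OSK, at 7.68 ± 0.679 CPM (log2 1.41, adjusted p = 0.00055). SOX4, a factor induced by TGF-beta, fell from 306 ± 18.6 CPM in GFP to 234 ± 6.86 in GSTA4 (adjusted p = 0.000208) and 149 ± 1.75 in OSK (log2 -1.03, SE 0.0692, adjusted p = 1.3e-10). FOXC1 rose in OSK from 10.3 ± 0.645 to 23.3 ± 2.10 CPM (log2 1.18, adjusted p = 1.13e-07), and its lower level in GSTA4, 7.31 ± 1.04 CPM (adjusted p = 0.0103), was lost without GSTA4 replicate 3 and with WT as the control (adjusted p from 0.00484 to 0.218). PRRX1, a homeobox factor of limb mesenchyme, fell in OSK from 6.10 ± 0.406 to 2.75 ± 0.945 CPM (adjusted p = 0.000288). In GFP against WT, SOX9 and FOXQ1 were higher (log2 0.53 and 0.88, adjusted p = 3.77e-05 and 0.0011). Among 18 corepressors and turnover factors of SNAI, ZEB and TWIST proteins, 3 rose and 2 fell in GSTA4 (median 0.03) and 5 rose and 2 fell in OSK (median 0.08), shares of 27.8% and 38.9% that lay near or below those of all genes. BTRC, the ubiquitin ligase subunit that marks phosphorylated SNAI1 for degradation, rose in OSK from 42.3 ± 4.15 to 71.2 ± 0.993 CPM (log2 0.75, adjusted p = 5.96e-08). The corepressors of ZEB factors CTBP1 and CTBP2 were within 0.19 of GFP on the log2 scale in both lines, and CTBP1 passed with adjusted p-values of 0.0436 and 0.0191. Both CTBP1 calls were lost with WT as the control (log2 0.00 in GSTA4 and 0.01 in OSK), with scaling by library size alone and without GFP replicate 1. The GSTA4 call was also lost with DESeq2, under both other filters and without GFP replicate 2 or GSTA4 replicate 1 or 2, and the OSK call without OSK replicate 2. LOXL2, which stabilises SNAI1, was lower in GFP than in WT, at 60.1 ± 2.66 against 169 ± 82.8 CPM (adjusted p = 6.18e-05), with the WT libraries at 265, 129 and 115 CPM.

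TGF-beta is the best studied inducer of the transition in RPE. Of 14 tested genes of that input, 4 rose and 7 fell in GSTA4 (median -0.19), and 4 rose and 8 fell in OSK (median -0.17), each against GFP. TGFB2, the main TGF-beta ligand of the eye, rose in GSTA4 from 115 ± 8.45 to 249 ± 14.4 CPM (log2 1.12, SE 0.0763, adjusted p = 4.78e-10) and fell in OSK to 82.3 ± 4.57 CPM (adjusted p = 3.59e-05). SMAD3, which carries the signal to the nucleus, went the same ways, from 352 ± 8.76 to 521 ± 14.0 CPM in GSTA4 (adjusted p = 3.84e-07) and 259 ± 16.5 in OSK (adjusted p = 5.01e-06). SMAD7, the inhibitor that TGF-beta itself induces, fell in both, from 98.2 ± 4.19 to 42.4 ± 2.00 CPM in GSTA4 (log2 -1.21, adjusted p = 1.25e-11) and 57.7 ± 2.17 in OSK (log2 -0.77, adjusted p = 3.7e-09). SKIL, another inhibitor of SMAD signalling, fell in GSTA4 from 95.9 ± 10.1 to 47.5 ± 3.85 CPM (adjusted p = 7.01e-09) and rose in OSK to 113 ± 8.19 CPM (adjusted p = 0.016). That OSK call was lost with WT as the control (log2 0.00, adjusted p = 0.972), with scaling by library size alone and without GFP replicate 2 or 3 or OSK replicate 1 or 2. BAMBI, a decoy receptor, fell in OSK from 79.7 ± 8.49 to 39.9 ± 1.98 CPM (adjusted p = 5.3e-09), and the receptor TGFBR2 rose there from 47.5 ± 4.13 to 76.6 ± 5.43 CPM (adjusted p = 1.12e-06).

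Cadherins are also removed by cleavage outside and inside the membrane. Of 9 tested genes for that, 1 rose and 5 fell in GSTA4 (median -0.24), and 4 rose and 2 fell in OSK (median 0.15). ADAM15, a membrane protease that sheds E-cadherin, rose from 178 ± 16.2 CPM in GFP to 259 ± 10.4 in GSTA4 (log2 0.54, adjusted p = 9.28e-06) and 661 ± 48.8 in OSK (log2 1.89, SE 0.0737, adjusted p = 2.44e-14). It was also higher in GFP than in WT (log2 0.33, adjusted p = 0.00277). NCSTN, a subunit of the gamma-secretase that cuts shed cadherins in the membrane, rose in OSK by a log2 difference of 0.67 (adjusted p = 5.78e-09). ADAM10, the main E-cadherin sheddase, was at 187 ± 7.67 CPM in GFP, 158 ± 4.79 in GSTA4 and 207 CPM in OSK (adjusted p = 0.00463 and 0.0524), and its GSTA4 call was lost with WT as the control (adjusted p from 0.000848 to 0.212). MMP14, a membrane metalloprotease, fell from 1032 ± 70.8 CPM in GFP to 784 ± 7.34 in GSTA4 and 603 ± 14.8 in OSK (adjusted p = 1e-04 and 5.3e-09).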

How the data were processed

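The authors deposited 1 table of raw read counts per gene, as whole numbers whose totals differ between libraries. Per the submitters' processing notes the tools were STAR 2.7.1a and featureCounts 1.6.2, and GRCh38/hg38 and GRCm38/mm10 are named with no role. The annotation release and strand setting are not given in the sources used here, and the labels name a NEBNext Ultra II RNA kit without saying that it is directional. Of 60605 lines, 20014 without a gene name (0.485% to 0.822% of a library's reads) were left out of library sizes and tests. Since no molecular identifiers are named, a floor covers counting error alone.

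The quasi-likelihood test of edgeR 4.0.16 (R 4.3.3, with limma 3.58.1) was run on TMM-scaled libraries, in 1 fit of all 12 with a mean per group. filterByExpr kept 15179 genes. Two-sided p-values were adjusted per comparison (Benjamini-Hochberg) and called at 0.05. Fold changes used a prior count of 0.125, and log2 CPM for likeness one of 2. The test was checked on simulated counts. Samples were grouped by their titles. The 10 genes, the lists and the rule for naming genes were chosen with earlier results of these data known. Per list and comparison, the rule named up to 2 genes higher and 2 lower with the lowest adjusted p, past the threshold and with a mean of at least 1 CPM, and always the 4 catenins CTNNA1, CTNNB1, CTNND1 and JUP. OCLN, TAGLN, FN1, CTBP1, CTBP2 and ELF3, and some values of other named genes in further comparisons, were chosen after their values were seen. As alternatives, scaling was by RLE or by library size only, the filter was dropped or set to a mean of 1 CPM, DESeq2 1.42.0 took the place of edgeR, replicate number was added as a block, WT was the control, the fit used only the 6 libraries compared, or 1 library was left out. Positions and exon lengths are from GENCODE 29 (GRCh38).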

Additional observations from a re-analysis of the deposited data

Results flagged for a closer look

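ZEB2 was higher in every GSTA4 library and lower in every OSK library than in the GFP libraries. The direct log2 difference of OSK from GSTA4 was -1.05, and it was not tested because the gene was chosen with its values known.

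Genes that the naming rule took from the pathway lists were searched for opposite directions in GSTA4 against GFP and in OSK against GFP. To be counted, a gene had to pass the threshold in both and in OSK against GSTA4, in edgeR's quasi-likelihood test. The search gave 17 genes, and how many of all tested genes meet the same conditions was not counted. The naming rule favoured genes with low adjusted p-values, so nothing is read from that number. COL5A1, on the mesenchymal list but not named by the rule, also met them (log2 -1.37, 1.24 and 2.61 in these comparisons in turn). In 7 of the 17 the OSK line was higher. LOX differed by 3.70 on the log2 scale (OSK relative to GSTA4), NECTIN1 by 1.91, FOXC1 by 1.67, SKIL by 1.25, DSP by 1.19, SIAH2 by 0.94 and SMAD2 by 0.43. The OSK line was lower for the rest. TGFB2 differed by -1.60, CDH24 by -1.49, ACTA2 by -1.18, SMAD3 by -1.01, PKP2 by -0.94, DSC3 by -0.81, TGFB1 by -0.77, VIM by -0.75, PKP4 by -0.61 and CTNNB1 by -0.55. Several of these calls against GFP were lost when libraries were left out. In GSTA4 this held for ACTA2 without any 1 of the 6 libraries compared, for SIAH2 without GFP replicate 2 or 3 or GSTA4 replicate 2 or 3, for SMAD2 without GFP replicate 1 or GSTA4 replicate 1 or 3, and for FOXC1 and PKP2 without GSTA4 replicate 3. In OSK it held for TGFB1 without GFP replicate 1 or 2 or OSK replicate 2 or 3, for SKIL without GFP replicate 2 or 3 or OSK replicate 1 or 2, for VIM without GFP replicate 2 or OSK replicate 1, and for CTNNB1 without GFP replicate 2 or OSK replicate 3. With WT as the control, TGFB1 in GSTA4 and ACTA2 in OSK had the opposite sign, so they were no longer opposite between the lines. The calls of SKIL and VIM in OSK and of FOXC1 in GSTA4 were also lost with WT as the control.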

How the results depend on the processing

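Of 323 fold changes of the 6 filtered genes under the alternatives, 309 moved by less than the spread between replicates and 14 by more. Of the 14, 2 came from leaving out 1 library and 12 from other alternatives. With WT as the control, CDH1 went from -6.22 to -3.94 in GSTA4 and from -4.92 to -2.63 in OSK. CDH11 went from 0.49 to 0.03 and from 1.33 to 0.87, and ZEB2 from 0.60 to 0.31 and from -0.44 to -0.73. ZEB1 moved less, from 0.39 to 0.32 and from 1.49 to 1.42. The sign of CDH2 in GSTA4 against GFP, 0.01, turned under 6 alternatives, with WT as the control to -0.25. Of 2391 values for named list genes, 2258 kept their side of the threshold, 120 lost and 8 gained it, and 5 that were past it changed sign, all with WT as the control: in GSTA4 CSNK1E went to -0.05, CTBP1 to 0.00 and TGFB1 to -0.25, and in OSK PERP went to -0.39 and ACTA2 to 0.28. Of values not past the threshold, 3 also changed sign: with WT as the control AP1M2 in GSTA4 (0.55) and CDH13 in OSK (-0.23), and without GFP replicate 3 CTBP2 in OSK (0.04). AP1M2 was then past the threshold and is among the 8 that gained it. The list genes past the threshold in GFP against WT, 41, were 26 with only the 6 libraries compared and 25 to 35 with 1 library left out. Over all genes, leaving out 1 library gave 2267 to 3222 calls in GFP against WT (3369 with all), 3459 to 4109 in GSTA4 against GFP (4439), 6188 to 6625 in OSK against GFP (6962) and 6452 to 6674 in OSK against GSTA4 (7262).

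Scaling by library size alone moved the share of higher calls from 50.4% to 39.8% in OSK against GFP and from 50.3% to 42.5% in OSK against GSTA4. The main fit did not pair libraries by replicate number. Deviations of same-numbered libraries correlated at -0.03 to 0.18, over 0.1 in 3 of 18 pairs. Those 3 were WT replicate 1 with replicate 1 of GFP (0.18), GSTA4 (0.18) and OSK (0.14). A library correlated best with its own number, among 3 libraries of another group, in 15 of 36 cases. Whether same-numbered libraries share a batch was not tested. With a replicate block, 3779 genes (42 on the lists) passed in GFP against WT, 4734 (68) in GSTA4 against GFP, 7269 (91) in OSK against GFP and 7476 (83) in OSK against GSTA4. In every comparison this was more than in the main fit. Depth limits CDH1 in GSTA4 and OSK, and CDH3, SNAI1, SNAI2 and TWIST2 in every group.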

Other observations

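SNAI2 was at 0 reads in all 12 libraries, while coding genes on 1 side of it on chromosome 8 were read. Summed over the 12 libraries, PRKDC held 74911 reads, MCM4 8774 and UBE2V2 6460. On the other side PPDPFL held 1 and SNTG1 13. Of 649 protein-coding genes on that chromosome 33 had 0 reads (5.08%), against 888 of 19018 placed coding genes (4.67%). These values were looked up after the 0 of SNAI2 had been seen.

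Among epithelial genes outside the described set, SPINT1, ELF3 and MAL2 were lower in the GSTA4 line than in GFP and in OSK. MAL2 was higher in OSK than in GSTA4 by 0.46 on the log2 scale (edgeR adjusted p = 0.00111), and it was lower in OSK than in GFP. In OSK against GSTA4, SPINT1, an inhibitor of matriptase, was at 3.46 ± 0.732 against 1.10 ± 0.243 CPM (SD, n = 3; log2 1.64, edgeR adjusted p = 0.00012), and ELF3, an epithelial ETS factor, differed by 1.44 on the log2 scale (edgeR adjusted p = 0.00197). Against GFP, SPINT1 and ELF3 were lower in GSTA4 (log2 -1.57 and -1.28, edgeR adjusted p = 0.000485 and 0.00984), and in OSK neither passed (log2 0.07 and 0.15, edgeR adjusted p = 0.856 and 0.723). Between OSK and GSTA4, 4 of the 17 tested epithelial genes were higher in OSK and 6 lower.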
